A study of Mus musculus with 2 samples.

Results

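The middle distal VH stretch of the immunoglobulin heavy chain (Igh) locus was examined in 5C contact maps of mouse B cells. Its fragments were those whose midpoint lay in a fixed window of chromosome 12 (mm9), a rule by position that itself uses no measured value. The window was chosen with earlier results of these data known. The fragments of the stretch numbered 23 of the 206 assayed, 13 with a forward and 10 with a reverse primer, and ran from 116198884 to 116742143. Every forward-by-reverse pair with at least 1 end among them was a member, zeros included, which gave 2254 of 10584 pairs. Of these, 130 joined fragments of the stretch to each other and 2124 joined it to the rest of the locus.

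The cells were resting B cells from the spleen of C57Bl/6 mice, unstimulated and taken as CD43- cells with magnetic beads. Both libraries belong to this group, and the design text calls them biological replicates, so there is no contrast between conditions. The sources used here do not give the sex or age of the mice or say whether mice were pooled. With 2 libraries, a two-sided exact sign-flip permutation test over libraries cannot give a p below 0.5, so no difference could pass a threshold. Values below are therefore descriptions, with the SD over the 2 libraries where a mean is given, and differences between intervals are taken within each library.

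In a B cell, an antibody heavy chain gene is assembled by joining a VH, a DH and a JH gene segment upstream of the constant-region genes. The VH segments occupy most of the locus, and in pro-B cells the locus contracts, which brings distal VH segments near the DH and JH segments. In resting splenic B cells that joining is complete, and the 3' regulatory region, a group of enhancers beyond the constant genes, acts in class switching and in heavy chain expression. The distal VH domain holds mainly segments of the Ighv1 (J558) family, with Ighv8 segments among them. In the RefSeq gene table of assembly GRCm38, 119 VH entries lay between the first Ighv1 entry and the distal end, of which 92 were Ighv1, 15 were Ighv8 and 12 belonged to other families. That table is of another build than the maps, so no fragment was assigned to a gene, and the names of intervals used here stand for approximate positions in mm9.

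In 5C, fixed chromatin is cut with HindIII and ligated, and the count of a forward primer with a reverse primer measures how often their fragments were joined. Contacts of forward fragments with each other, or of reverse fragments with each other, are not seen. By the primers' numbering, the stretch spans 152 HindIII fragments, of which 15.1% were assayed, and these covered 16.1% of its 543 kb. Fragments of the stretch were from 1.01 kb to 9.20 kb long, with a median of 2.95 kb. The largest gap between neighbouring midpoints, 103 kb, separated 14 fragments of a low-coordinate part (116198884 to 116439886), nearer the constant genes, from 9 fragments of a high-coordinate part (116539430 to 116742143).

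The libraries held 16067416 and 15096402 counts. The values are whole numbers, but an unexplained tag in the matrices' names leaves it unknown whether some coverage correction preceded deposition, so they may not be raw counts. Members took 876975 counts in replicate 1 and 772180 in replicate 2, or 5.29% ± 0.243 (SD, n = 2), although they were 21.3% of the pairs. The median member count was 103 in replicate 1 and 88 in replicate 2, against 105 and 95 over all pairs. Of the members, 32 were at 0 in replicate 1, 55 in replicate 2 and 19 in both. A count of 0 allows up to 3 counts, which is 1.87e-05% of replicate 1 and 1.99e-05% of replicate 2, for counting error only. Across members, which share primers and are not independent, Spearman's rho between libraries was 0.92 for counts. The 952 members that reached 100 counts in each library differed between libraries by a median of 1.31-fold, and 67 of them were more than 2-fold apart. Intervals and floors for counts cover counting error only.

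Fragments of the stretch differed widely in how much contact they showed. The level of a set of pairs is given here as the median log2 ratio of the count to the median count of the 200 pairs nearest in distance, with 1 added to both. A level of 0 is therefore the middle of all pairs at that distance. Distance here and below is that in the mm9 assembly. Changes that joining of the segments made in these cells to distances, or to the copies of a fragment, were not measured. Over all its partners, the forward fragment F611 (116559256 to 116561326) had the highest level of the stretch, 2.00 in replicate 1 and 1.91 in replicate 2, the third highest of the 98 forward fragments. R571 (116433753 to 116436207) followed with 1.84 and 1.70. F624, F634 and F661, all in the high-coordinate part like F611, had mean levels of 1.31, 1.23 and 1.15. In the low-coordinate part F556, R522 and F517 were next, at 0.89 ± 0.24, 0.80 ± 0.12 and 0.73 ± 0.28 (SD, n = 2). R654, R606, F510, F513, F609 and R610 had mean levels between 0.05 and 0.62, and F573, F548, F526, R514, F542 and R512 between -0.88 and -0.09. Of these 12, F573, F609 and R610 changed side of 0 between the libraries.

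At the other end stood 3 reverse fragments with the lowest summed counts. R528 (116286772 to 116293346) had 2982 and 2718 counts over 98 partners and a level of -3.93 ± 0.35 (SD, n = 2). R552 (116364360 to 116366864) had 3296 and 2236 counts and a level of -3.10 ± 0.64. R628 (116622296 to 116627666) had 8420 and 6356 counts and a level of -2.34 ± 0.41. These 3 were low with the constant end, with other VH intervals and inside the stretch alike. Over all partners replicate 2 was the lower library for each, but with the constant end it was the higher for R528 and R628. Of the 23 fragments 14 had a mean level above 0, namely 8 of 9 in the high-coordinate part and 6 of 14 in the low-coordinate part. Among the VH intervals the middle stretch had the highest median fragment level, 0.29 ± 0.076, against -0.11 ± 0.12 in the first distal stretch (28 fragments) and -1.03 ± 0.003 in the farthest (17 fragments). Each of these 3 intervals held fragments below -3, so the ranges overlapped widely.

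**Figure D1:**
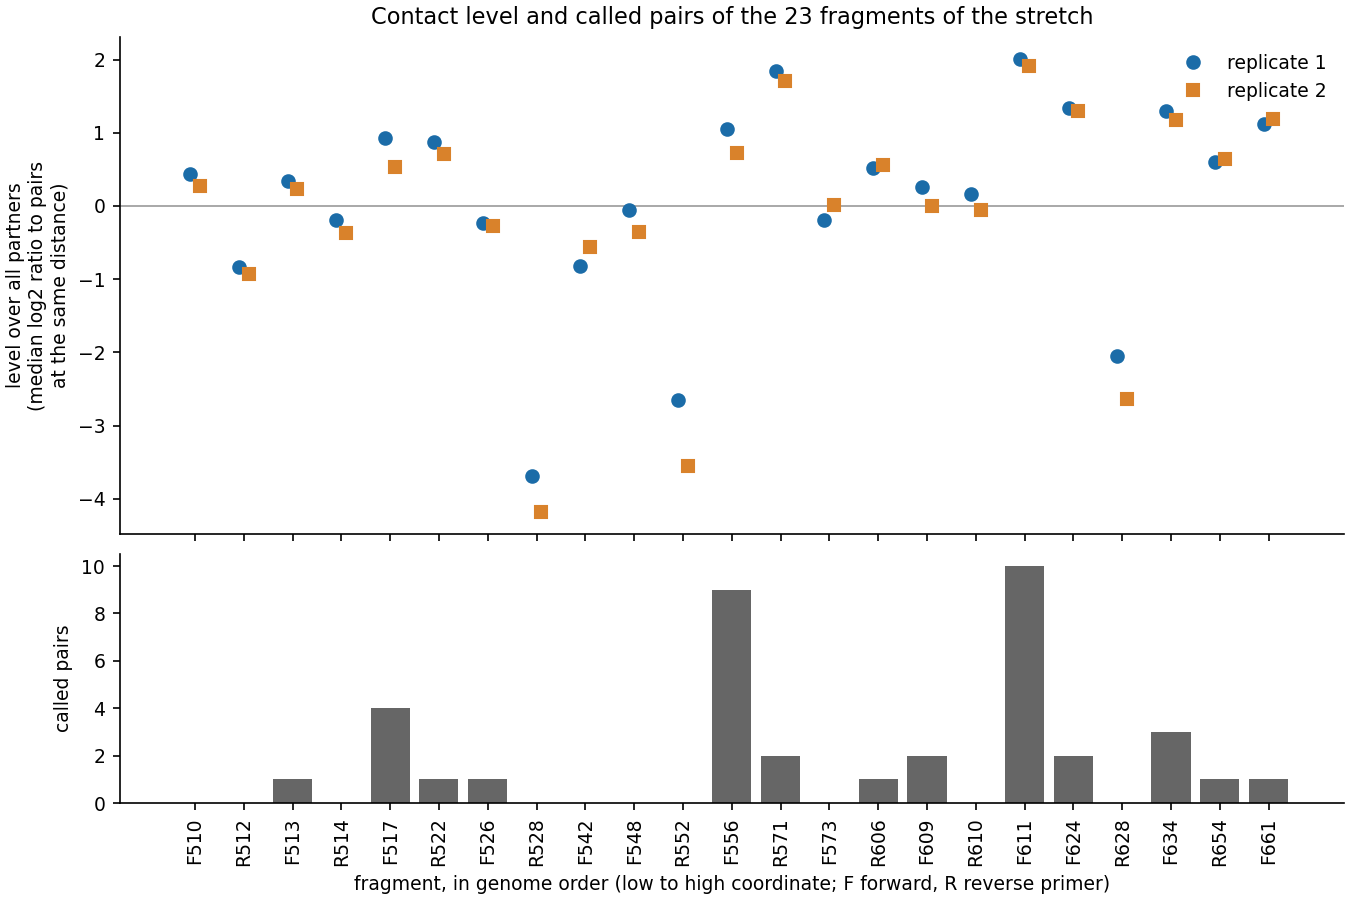
Top, contact level of each of the 23 fragments over all its partners in replicate 1 (circles) and replicate 2 (squares), as the median log2 ratio to pairs at the same distance. Bottom, bars give the number of its called pairs. F611 reached 2.00 and 1.91 with 10 called pairs, while R528, R552 and R628 lay below -2 in both libraries with 0.

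Some neighbouring fragments had like levels and others did not. Among the 21 pairs of fragments next to each other on the same kind of primer, the median count ratio with distance taken out was within 1.5-fold in both libraries for 5 and over 2-fold in both for 8. F634 and F661, for example, had a ratio of 0.96 and 1.03, and F510 and F513 one of 0.85 and 0.87. F609 (116553198 to 116556522), R610 and F611 are consecutive HindIII fragments, and the midpoints of F609 and F611 lie 5.43 kb apart. Over 107 shared reverse partners, the median count ratio of F611 to F609, with distance taken out, was 3.27 in replicate 1 and 3.18 in replicate 2. F611 was the higher with 100 of these partners in replicate 1 and with 97 in replicate 2. Their levels still ranked partners alike, with Spearman's rho of 0.71 in both libraries, but with additive primer effects removed rho was -0.07 and -0.18. Over the 21 neighbouring pairs rho of the levels ran from 0.38 to 0.89. With primer effects removed it ran from -0.40 to 0.53 and was above 0 in both libraries for 12 pairs, among them F611 with F624 (0.45 and 0.46) and R610 with R628 (0.53 in both), and below 0 in both for 8. R552 and R571, assayed neighbours 69.4 kb apart, differed more: R571 had 24.1 and 31.7 times the count of R552 at the median of 98 shared forward partners. R522 and R528 lie 19.4 kb apart, and R528 was the higher of them with 0 partners in replicate 1 and with 1 in replicate 2. Differences in ligation, amplification or primer quality were not measured, so their part in these levels was not tested.

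For that reason a second scale is given beside the first. Forward and reverse primer effects, each a constant added to log2(count + 1), were fitted together with the distance curve and removed, after leaving out the 81 pairs in the maps whose fragments share a HindIII site. That step also removes any contact that a fragment makes with all partners, so it cannot separate primer effects from such contact.

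Toward the constant end the stretch had a raised level on the first scale. Over the 743 pairs with the 3' flank, the constant genes and the JH and DH part, the level was 0.74 in replicate 1 and 0.64 in replicate 2, or 1.61 times the middle of pairs at the same distance. The 3 intervals differed. With the 3' regulatory region and constant genes (114441222 to 114659958, 365 pairs) the level was 1.19 and 0.98, and the median count was 166 and 138 at a median distance of 1856 kb. With the 3' flank (114339456 to 114441221, 197 pairs) it was 0.86 and 0.79. With the interval of JH, DH and the intergenic control region IGCR1 (114659959 to 114794187, 181 pairs) it was -0.37 and -0.52, below the middle in both libraries. Reverse fragments of the stretch had -1.01 and -0.96 with that interval, and forward fragments 0.11 and -0.11. IGCR1 is a regulatory region between the VH and DH segments.

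The high-coordinate part of the stretch, although farther away, was the higher of the 2 parts with the constant genes, at 1.38 ± 0.03 against 0.83 ± 0.22 (SD, n = 2). Forward fragments of the stretch had levels of 1.58 and 1.60 with this interval, and reverse fragments 0.20 and 0.07. On the scale with primer effects removed the level was 0.04 ± 0.009 with the constant genes and 0.04 ± 0.002 with the whole constant end, so both lay near 0 on that scale. There the order of the 2 parts with the constant genes was reversed in both libraries. The high-coordinate part had -0.09 and -0.03, and the low-coordinate part 0.15 and 0.09.

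Other VH intervals met the same constant-end fragments but at other distances, so their levels rest on different reference pairs. Median distances to the constant genes ran from 412 kb for proximal VH to 2361 kb for the farthest stretch. The order of levels is therefore not an order of contact counts. The mean of the 2 median counts was 224 for proximal VH and 152 for the middle stretch. With the 3' regulatory region and constant genes, the level was 0.91 ± 0.035 for proximal VH, 0.57 ± 0.028 for intermediate VH, 0.66 ± 0.024 for the first distal stretch, 1.08 ± 0.15 for the middle stretch and 0.19 ± 0.020 for the farthest distal stretch (SD, n = 2 each). The middle stretch was the highest in both libraries, above proximal VH by 0.30 in replicate 1 and by 0.046 in replicate 2, and the farthest stretch was the lowest. Of the 65 constant-end fragments, 43 had a higher level with the middle stretch than with the other VH intervals in both libraries, and 10 a lower one in both. The sides differed. All reverse constant-end fragments but R90 and R106, which meet only forward fragments of the stretch, were higher in both. The 10 lower ones were all forward fragments, which meet only its reverse fragments. After removal of primer effects the 5 levels lay between -0.08 and 0.21, and the middle stretch was no longer the highest. It stood at 0.04 ± 0.009, below proximal VH by 0.19 in replicate 1 and by 0.16 in replicate 2. It was also below the first distal stretch (0.07 ± 0.042) and the farthest (0.05 ± 0.010).

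**Figure D2:**
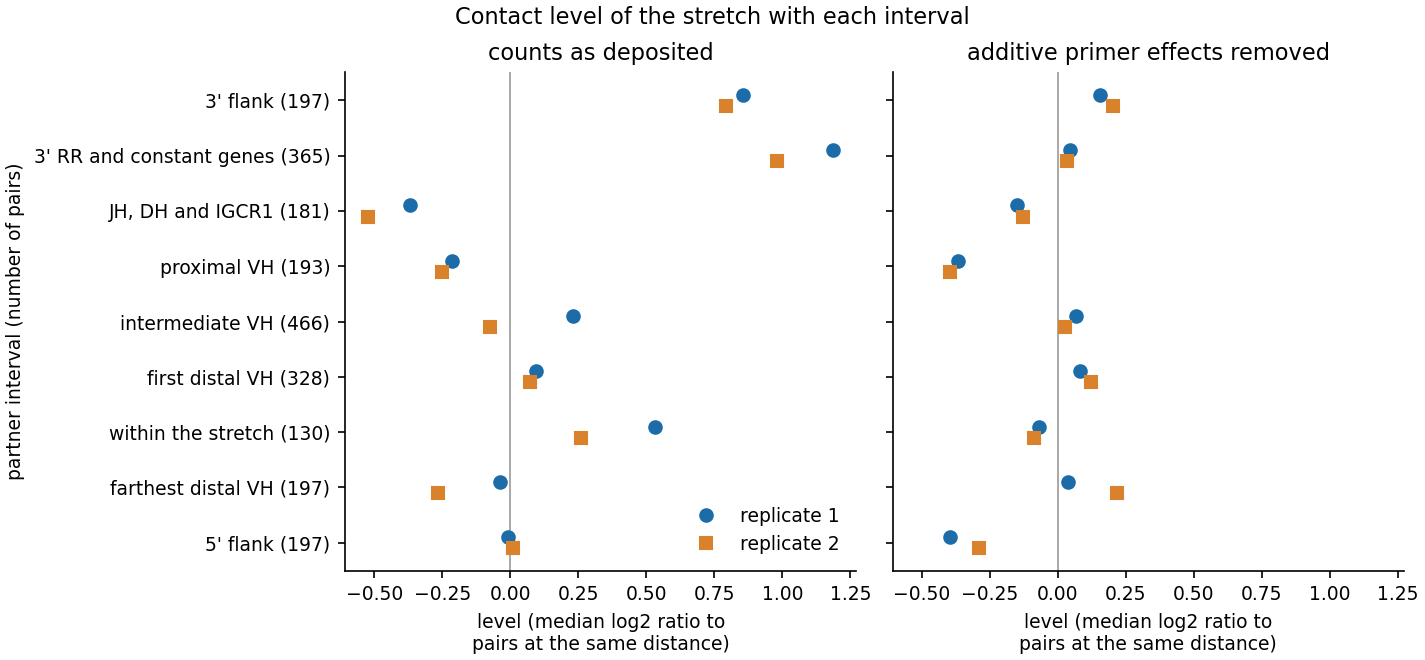
Level of the stretch with each interval (median log2 ratio to pairs at the same distance) in replicate 1 (circles) and replicate 2 (squares), with the number of pairs in brackets. On the deposited counts (left) the constant genes reached 1.19 and 0.98; with additive primer effects removed (right) they lay at 0.05 and 0.03.

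Toward the other VH intervals the stretch stayed near the middle of pairs at the same distance. Over 1184 pairs the level was 0.05 in replicate 1 and -0.07 in replicate 2. It was -0.23 ± 0.024 with proximal VH, 0.08 ± 0.22 with intermediate VH, 0.08 ± 0.016 with the first distal stretch and -0.15 ± 0.16 with the farthest (SD, n = 2 each). For intermediate VH the libraries fell on opposite sides of 0, at 0.23 and -0.07. By primer side, mean levels of forward fragments of the stretch lay between -0.02 (proximal VH) and 0.28 (first distal). Those of reverse fragments were all below 0, from -1.25 (farthest) to -0.42 (first distal). On the second scale proximal VH was again the lowest of the 4 at -0.38 ± 0.021, and the 5' flank beyond the VH segments stood at -0.34 ± 0.076, against 0.002 ± 0.015 on the first scale.

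**Figure D3:**
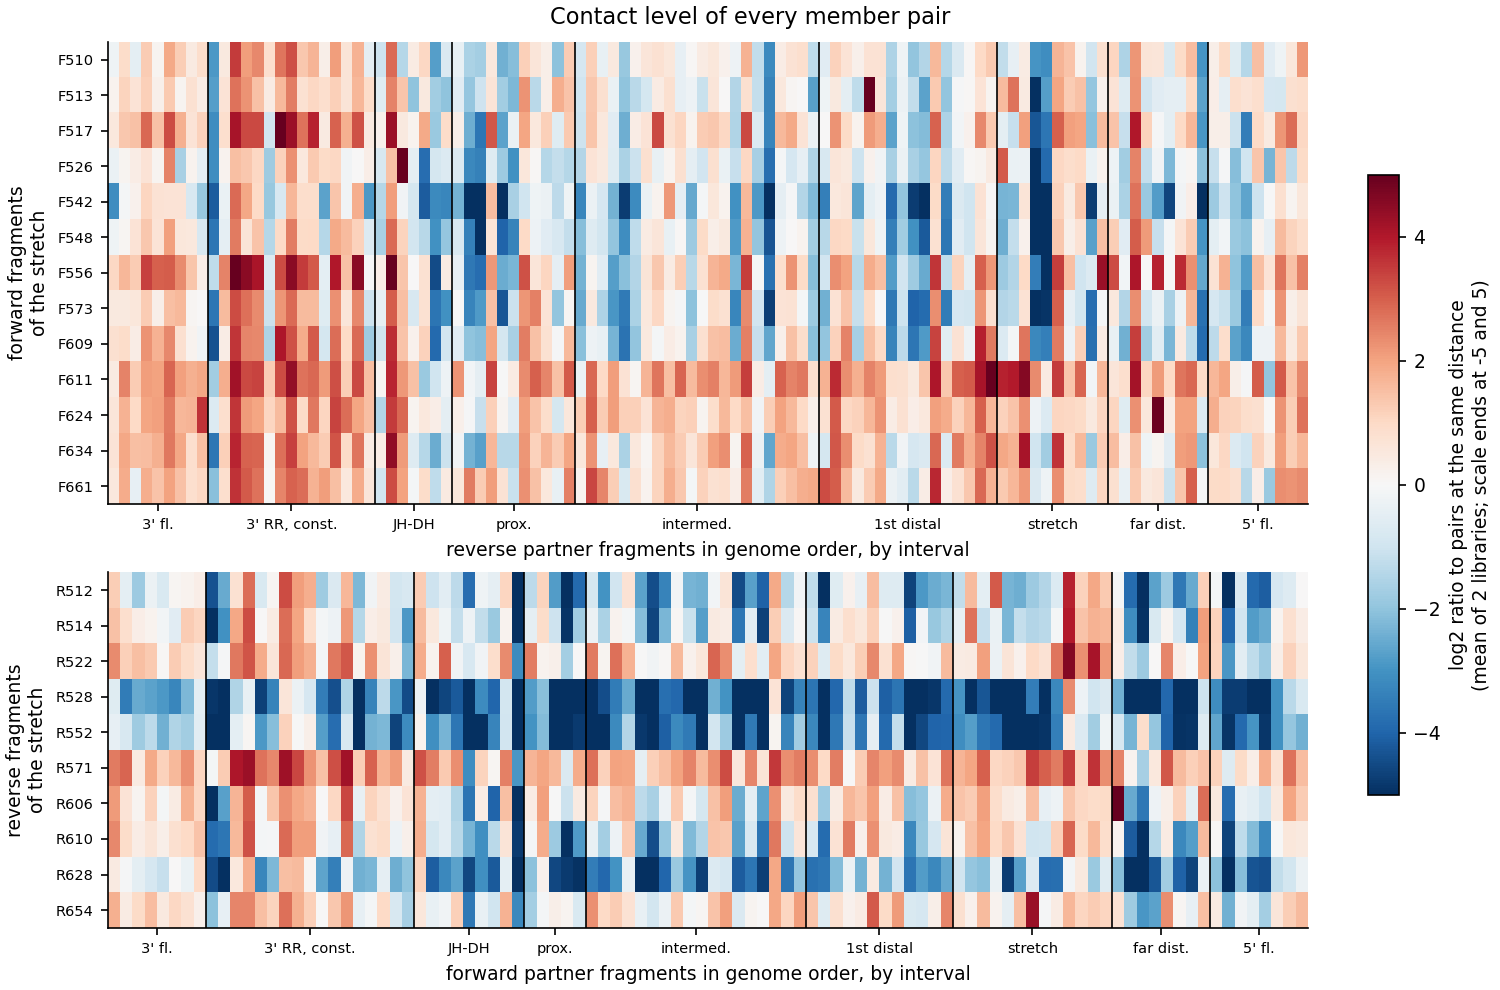
Mean log2 ratio of each member pair to pairs at the same distance, for forward (top) and reverse (bottom) fragments of the stretch against all partners in genome order, grouped by interval. Rows of R528, R552 and R628 are low with nearly all partners, and columns of the constant genes are mostly high for F517, F556 and F611.

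Inside the stretch, pairs over 200 kb apart were high for their distance in both libraries and no closer class was. The level over all 130 inner pairs was 0.53 in replicate 1 and 0.26 in replicate 2. A single pair, F573-R571, whose fragments lie 3.30 kb apart with 1 short fragment between them, had 82315 of the 381782 inner counts in replicate 1 and 72740 of 320055 in replicate 2. The 5 member pairs that share a HindIII site held 231419 and 192577 counts, from 21635 (F609-R610) to 76866 (F611-R610) in replicate 1 and from 20897 (F510-R509) to 69007 in replicate 2. They are left out of the distance classes. The 18 pairs under 50 kb apart had median counts of 1695 and 1245, against 1423 and 1084 outside the stretch, but matched pair by pair for distance their level was below 0, at -0.45 and -0.55, and with primer effects removed at -0.45 ± 0.20 (SD, n = 2). The 21 pairs from 50 to 100 kb apart had 566 and 404, against 448 and 412.5 outside, with levels of 0.38 and -0.10. The 31 pairs from 100 to 200 kb apart had median counts of 284 and 249, against 311 and 276 for pairs at that distance outside the stretch, with levels of -0.17 and -0.34. The 44 pairs from 200 to 400 kb apart had 368.5 and 265, against 167 and 137 outside, with levels of 1.19 and 0.70. The 12 pairs from 400 to 600 kb apart had 213 and 200.5, against 110 and 103, with levels of 1.07 and 1.04.

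Most of the far pairs joined the low-coordinate to the high-coordinate part across the unassayed gap. These 62 pairs had a level of 0.74 ± 0.18 (SD, n = 2), and 38 lay above the middle in both libraries and 18 below it in both. Pairs inside the low-coordinate part had a level of -1.16 ± 0.087, and pairs inside the high-coordinate part 0.92 ± 0.097. On the second scale only the pairs between the parts stayed above 0, at 0.43 ± 0.055, against -0.21 ± 0.071 and -0.32 ± 0.14. Of these 62 pairs 18 involved R528, R552 or R628, and 2 of those 18 lay above the middle in both libraries. Without F611 the first-scale level between the parts was 0.48 ± 0.097, and without R571 it was 0.49 ± 0.13. The division at this gap and both omissions were chosen after the data were examined.

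At 200 to 400 kb the other VH intervals had different inner levels. It was 0.37 ± 0.092 in the first distal stretch (35 pairs), -0.74 ± 0.016 in intermediate VH (118 pairs) and -2.13 ± 0.30 in the farthest stretch (25 pairs), against 0.95 ± 0.35 in the middle stretch. Proximal VH had only 9 such pairs, at 0.56 ± 0.53. On the second scale the middle stretch had 0.49 ± 0.018, proximal VH 0.40 ± 0.25, the first distal stretch 0.13 ± 0.024, intermediate VH 0.07 ± 0.024 and the farthest stretch -0.25 ± 0.055. By the mean the middle stretch was the highest of these on both scales in this distance class. That class had already been seen to be high inside the middle stretch, so the ranking and differences in it are descriptions only. From 50 to 400 kb the middle stretch was the highest on the first scale only, at 0.41 ± 0.21. On the second scale it stood there at -0.07 ± 0.019, below proximal VH (0.73 ± 0.10) and intermediate VH (0.09 ± 0.030). At 200 to 400 kb, taken within each library, it exceeded the first distal stretch by 0.76 and 0.40, and by 0.36 and 0.37 with primer effects removed. Its difference from proximal VH had opposite signs in the libraries, 1.01 and -0.23, and 0.28 and -0.11 with primer effects removed. The exact sign-flip permutation p was 0.5, the smallest 2 libraries can give, for each interval but proximal VH, where it was 1.

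**Figure D4:**
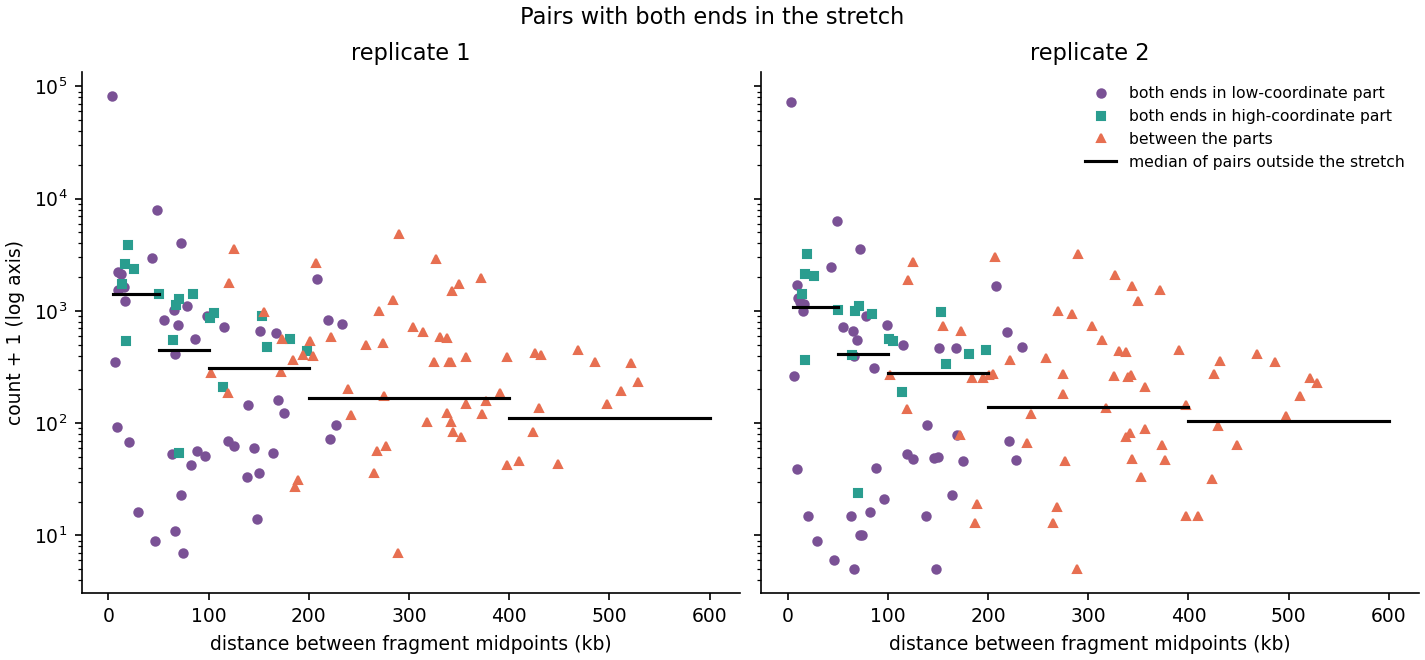
Count plus 1 (log axis) against distance for pairs inside the stretch that share no HindIII site, in each library. Symbols give the part that holds the ends, and black lines the median of pairs outside the stretch in each distance class; from 200 to 400 kb the medians were 368.5 and 265 inside against 167 and 137 outside.

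Single contacts that stood far above their distance were called with a z score, which is the count minus a LOWESS curve on distance, divided by the smoothed spread at that distance. The study counted looping contacts as significant when both replicates showed them, and a call accordingly needed a z of at least 2 in each library. Of the 2254 members 36 were called (1.60%), against 1.45% of all assayed pairs and 1.4% of pairs outside the stretch, a share near the background. Under a z threshold of 1.5 the members called were 64, against 2.29% of all pairs, and under 3 they were 11, against 0.652%. A LOWESS span of 0.1 gave 55, against 1.83% of all pairs, and a span of 0.4 gave 28, against 1.12%. Fitting log2 counts gave 12, against 0.671%. Over the 2254 members, the share called was above that of all pairs at a threshold of 1.5 and with both spans. It was below that of all pairs at a threshold of 3 and with log2 counts. Leaving out pairs that share a site gave 36, against 1.46% of all pairs kept. Leaving out pairs under 10 counts gave 30, against 1.42%. Replicate 1 alone gave 59, against 2.12% of all pairs, and replicate 2 alone 47, against 1.88%. Of the 36, 12 joined the constant end, 21 joined other VH intervals, 2 lay inside the stretch and 1 reached the 5' flank. Calls made up 2.47% of pairs with the constant genes, where the other VH intervals together had 3.31%. They made up 3.05% of pairs with the farthest stretch, 2.74% with the first distal stretch, 1.29% with intermediate VH and 0 of 193 with proximal VH.

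Removing primer effects gave 34 called members, against 1.23% of all pairs in that fit and 1.51% of members. Only 9 of the 36 were among them. Over members that share no site, Spearman's rho between libraries was 0.63 for z on this scale. Over all members it was 0.90 for z on the first scale. The lower of the 2 z scores was 2.02, 2.05 and 2.06 for the called pairs nearest the threshold and 1.96, 1.96 and 1.95 for the nearest uncalled ones.

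The called pairs gathered on few fragments. F611 had 10, F556 (116385510 to 116386658) had 9 and F517 (116222484 to 116231679) had 4, which together were 23 of the 36, and 10 of the 23 fragments had none. A forward end in the stretch was part of 33 called pairs among 1404 such pairs, and a reverse end of 5 among 980. Without F611, F556 and F517, an omission chosen after the data were examined, 13 of 1930 pairs were called (0.674%). F556 reached the constant end with 5 of its calls, to R33, R35, R44, R75 and R81. F611 reached it with 2, to R33 and R44, and had 6 with other VH intervals, 1 inside the stretch (R522) and 1 with the 5' flank. F517 had 1 with the constant end, to R41, and 3 with R286, R339 and R686. Only 3 calls rested on a reverse fragment of the stretch alone, F685-R606 and the pairs of R571 with F334 (793 and 647 counts) and F346 (956 and 840 counts) in intermediate VH.

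Partners recurred too. R339 in intermediate VH and R686 in the farthest stretch were each called with F517, F556 and F611. R374 in the first distal stretch was called with F611, F624 and F634. R33 (114486613 to 114491122), in the interval of the 3' regulatory region, was called with F556, F611 and F634. R33 had levels of 3.32 and 3.64 over the 13 forward fragments of the stretch, and 2.85 and 2.60 over the other VH intervals, with which 11 of its 43 pairs were called. R33 was thus high with VH fragments at large, and somewhat higher with the stretch in both libraries.

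The constant end was uneven, with a few fragments far above the rest. After R33 came R81 in the JH and DH interval, at 3.10 and 3.60 with the stretch, and R44 (114539129 to 114547720), at 3.13 and 3.04. F31 (114477117 to 114480873) was the highest forward fragment there by the mean, at 2.54 and 3.28 over the 10 reverse fragments of the stretch, but had no called pair with them and 12 with other VH fragments. At the low end F117 (114791568 to 114794187), the last assayed fragment before the VH intervals, had median counts of 1.5 and 1 with the stretch and levels of -4.89 and -4.92. The JH, DH and IGCR1 interval therefore held both R81, among the highest, and F117, the lowest of the 65 by the mean, although F23 was lower in replicate 2 at -5.24. Its 3 calls with the stretch were F556-R81, F634-R81 (1327 and 1611 counts) and F526-R83 (1510 and 2219 counts), of which F526-R83 was called on the second scale too.

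**Figure D5:**
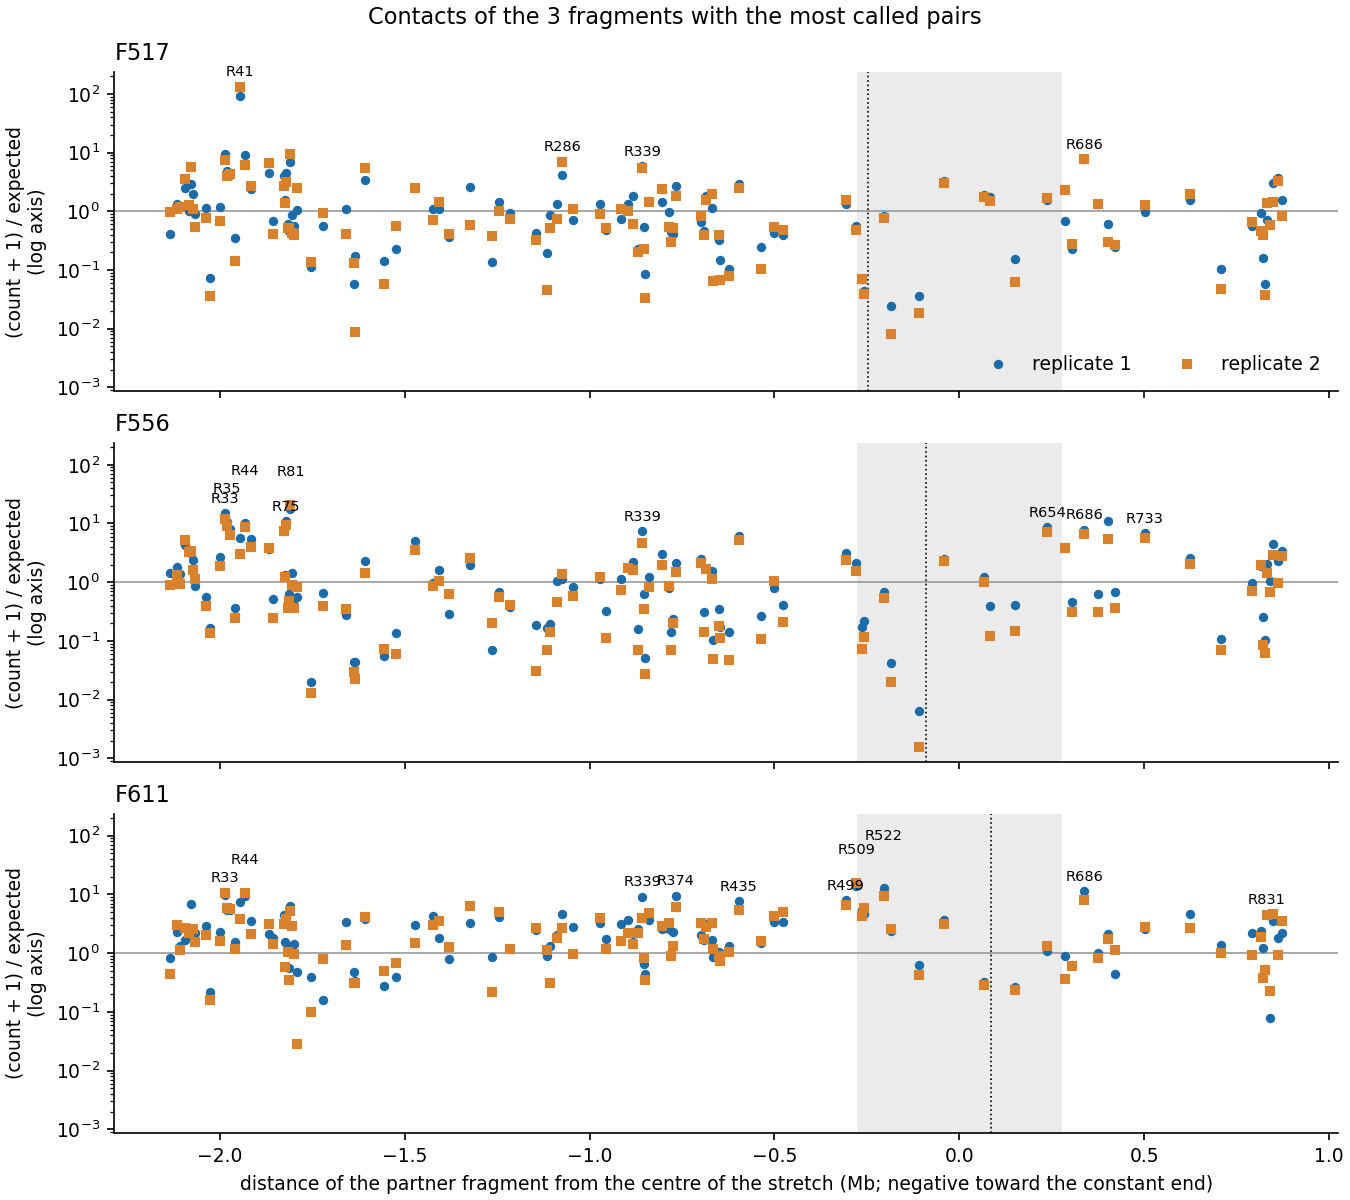
Count plus 1 over the count expected at that distance (log axis) for F517, F556 and F611 against the position of the reverse partner relative to the centre of the stretch, in replicate 1 (circles) and replicate 2 (squares). Grey marks the stretch, the dotted line the fragment itself, and names mark called pairs; R41 stands at 90.2 and 132 times the expected count with F517.

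The contact of the stretch with the highest mean z joined F517 to R41 (114528706 to 114531105), in the interval of the constant genes 1697 kb away. It had 13829 counts in replicate 1 and 20537 in replicate 2, where 153 and 155 were expected, or 111 ± 29.6 times (SD, n = 2). None of its 4 neighbouring pairs was called. The neighbouring fragments F513 and F526 had 180 and 227 counts with R41 in replicate 1 and 186 and 140 in replicate 2. F517 itself had 54 and 21 counts with R39, and 1389 and 946 with R44, on the other side. R41 was also called with F609, at 1261 and 1554 counts.

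The next 3 contacts stood alone in the same way. F685 (116809861 to 116811073), in the farthest stretch, and R606 (116539430 to 116542358) lay 269.6 kb apart and had 21363 and 21699 counts, 54.1 ± 4.30 times the expected count. That pair held 52.3% and 53.9% of the counts of F685 outside shared sites, and its 4 neighbouring pairs had at most 731 and 530. F513 (116215116 to 116216127) and R403 (115788404 to 115792870), in the first distal stretch, had 7687 and 11118 counts, and their neighbours at most 446 and 344. F624 (116605743 to 116610576) and R705 (116875021 to 116877871) had 6770 and 5977, 15.8 ± 0.312 times the expected count, and their neighbours at most 715 and 545. These 4 pairs were called on both scales. The second scale removes only effects that a primer has on all its pairs. Effects particular to a single pair remain on both scales and were not tested.

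The other 6 of the 10 highest contacts sat on F556, F611 and F661, with mean levels of 0.89, 1.96 and 1.15. Level alone did not set them apart, since F624 of F624-R705 had 1.31. F556 and R81 (114664824 to 114667095), in the JH and DH interval 1720 kb away, had 2730 and 3283 counts, 19.1 ± 2.30 times the expected count. F556 and R33 had 2614 and 2116, and the adjacent F556-R35 was called too, at 1864 and 1590. F611 and R509 (116193782 to 116198883), just outside the stretch on its low-coordinate side, had 4233 and 4181, and the adjacent F611-R499 was called at 2181 and 1610. F611-R374 had 1337 and 843 counts, and F661-R435 had 1245 and 733, with the higher value in replicate 1 in both cases. On the second scale only F611-R509 of these 6 was called, with z of 2.03 and 2.08. Of the 40 pairs adjacent to the 10 highest, 3 were called.

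Inside the stretch the 5 highest contacts all crossed the gap between its parts, and 4 of them ended on F611 or R522 (116268138 to 116273276). F611-R522, 290 kb apart and the sixth of those 6, had 4804 and 3185 counts, 11.0 ± 2.37 times the expected count. F556 and R654 (116710435 to 116715742), 327 kb apart, had 2881 and 2103, 7.82 ± 1.11 times, and were called on both scales. F634-R522, F611-R514 and F611-R512 had 6.24 ± 0.635, 5.27 ± 0.801 and 4.91 ± 0.836 times the expected count and missed the threshold in at least 1 library. F611 thus stood above the expected count with R512, R514 and R522, assayed neighbours at the low-coordinate end of the stretch. Its neighbour F609 was below it with R512 (83 and 47 counts) and R514 (121 and 74 counts) but above it with R522, at 1250 and 944 counts, 3.22 and 2.69 times the expected count.

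Removing primer effects brought up some pairs that held a weak fragment. The highest z on that scale was that of F702 (116864979 to 116868374) and R552, 501 kb apart, at 6.92 and 6.23. Its counts were 293 and 140, where 221 and 201 were expected, so it was ordinary for its distance and high beside the other pairs of both fragments. It ranked 1 and 2 among the partners of F702, a fragment with a level of -3.81, holding 11.4% and 6.86% of its counts, and 2 in both libraries among the 98 partners of R552. The adjacent pairs F694-R552 and F712-R552 had 23 and 33 counts in replicate 1 and 21 and 16 in replicate 2. F611-R528 had 991 and 992 counts and z of 3.79 and 3.99 on that scale. It joined R528, a fragment with 2982 and 2718 counts in all, to F611, the fragment of highest level in the stretch. Unlike F702-R552 it stood above the expected count in both libraries, at 2.38 and 2.62 times. Inside the stretch 5 members were called on this scale (3.97%, against 1.23% of all pairs in that fit). Such a share was not particular to the stretch. Inner pairs of other intervals had shares from 0 (3' flank) to 7.46% (5' flank). They were 5.77% in proximal VH, 1.30% in intermediate VH, 1.10% in the first distal stretch and 2.94% in the farthest. The 5 were F526-R512 with 4009 and 3539 counts, F611-R528, F542-R610 with 589 and 362 counts, F556-R654 and F611-R512. With the constant end 6 were called (0.808%), among them F517-R41, F609-R41 and F526-R83. The other 4 of the 5 highest pairs on this scale were F685-R606, F513-R403, F624-R705 and F517-R41, which also led on the first scale. F611-R528, F526-R512 and F542-R610 were singled out after their values were seen.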

How the data were processed

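5C libraries of unstimulated splenic B cells (1 group, replicates 1 and 2 from the labels) were analysed. Per the file headers, the deposited values are counts per forward and reverse primer pair in my5C all-by-all matrices, after a step called transpurge; all were whole numbers. The submitters' processing notes name Novoalign and mm9. The sources used here give no versions or settings. No correction between primers was visible, but an unexplained tag in the matrices' names may stand for a coverage correction, so the values may not be raw counts. PCR reads without molecular identifiers are not independent molecules.

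Expected counts and z came from LOWESS on log10 distance (span 0.2, no robustness steps; statsmodels 0.14.6, Python 3.11.15), levels from the 200 pairs nearest in distance. Primer effects were backfitted with the distance curve in 10 rounds. Functions were tested on simulated data. The 9 intervals have approximate bounds. Members, intervals and lists were chosen with earlier results of these data known. Named were the 10 called pairs, the 5 inner pairs and the 5 primer-corrected pairs with the highest z, the 5 fragments with most calls (ties by z) and the 3 with the lowest sums; other pairs and fragments were chosen after their values were seen. Pairs of the gene desert were not analysed here. No sequences are shown, since no mm9 genome was used here.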

Additional observations from a re-analysis of the deposited data

How the results depend on the processing

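The 36 called members were 64 at a z threshold of 1.5, 11 at 3, 55 with a LOWESS span of 0.1, 12 on the log2 scale and 13 without F611, F556 and F517. The 12 calls among 743 pairs with the constant end were then 25, 4, 23, 7 and 4. They were 6 with primer effects removed and 3 after iterative correction. The share called over all pairs moved with the setting too. From 1.45% it went to 2.29% at 1.5, 0.652% at 3, 1.83% with a span of 0.1 and 0.671% on the log2 scale. It was 1.12% with a span of 0.4, and 1.23% with primer effects removed. Counts of calls with the constant end and inside the stretch are to be read beside these shares. The 2 inner calls were 0 at a threshold of 3, with a span of 0.4 and without those 3 fragments, 1 on the log2 scale and with bounds moved inward by 50 kb, 4 with a span of 0.1, 5 with primer effects removed and 7 after iterative correction. Single replicates gave 47 to 59 called members, 14 to 22 with the constant end and 2 to 3 inside. Iterative correction gave 35 called members, against 1.23% of all pairs in that fit, and 8 of the 36 were among them. The inner level of 0.40 turned to -0.079 with primer effects removed. The level with the constant end, 0.69, became 0.042 there, 0.53 without pairs under 10 counts and 0.55 without the 3 fragments; that with other VH intervals, -0.01, became -0.18 without them. In single replicates these levels were 0.26 to 0.53, 0.64 to 0.74 and -0.07 to 0.05. The mean z of F702-R552 turned to -4.08e-06 with a span of 0.1 and to -0.022 without pairs under 10 counts. The cause of these changes was not tested. No paired analysis was possible because both libraries belong to a single group, which leaves no groups of samples to pair. Differences between intervals were taken within each library. Depth limits the 19 members at 0 in both libraries and the 201 under 10 counts in both.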
